A study of Homo sapiens with 4 samples.

Results

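The smooth muscle-type contractile genes MYL9, TAGLN, ACTA2, CNN1, CNN2, TPM1, TPM2, MYLK, CALD1 and ACTG2 were followed in cisplatin-resistant (CR) and wild-type (WT) IGROV1 cells. They were taken by gene symbol from a count table of 58051 genes, and all 10 were found and passed the low-count filter. The group had been chosen with earlier results of the same comparison known, so the CR and WT values of these 10 genes are given as a description and carry no p-value. IGROV1 is an established human ovarian carcinoma line. The CR cells were derived from the WT line by short cisplatin exposures at stepwise higher doses with drug-free recovery in between, and both were harvested untreated while growing exponentially. Polyadenylated RNA was sequenced from 2 replicates of CR and 2 of WT. The labels do not say that replicates came from separate cultures, and there is 1 resistant line and 1 parent, so p-values measure only the spread between these libraries, which may be technical, and do not cover separate selections.

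Contraction in smooth muscle runs on myosin II filaments pulling on actin. Calcium-bound calmodulin switches on myosin light chain kinase, the product of MYLK, which phosphorylates the regulatory light chain encoded by MYL9 and so permits the motor to cycle. Tropomyosin, caldesmon and calponin lie along the actin filament and restrain or tune that interaction, and transgelin crosslinks and stabilises the filament. Many of these genes are controlled by serum response factor (SRF), which binds a DNA element called the CArG box and works with the myocardin family of coactivators. Epithelial and carcinoma cells use the same machinery in stress fibres and the cell cortex, largely through non-muscle paralogs.

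The CArG box is a run of A and T bases between CC and GG. The general pattern reads the same way on both strands, though a single box that matches it need not. RefSeq promoter windows (GRCh38.p14, 250 bases before to 50 after each annotated start) were present for 8 of the 10 genes, 13 windows in all, and an exact CArG match was found in windows of 3 genes, ACTG2, CNN2 and MYLK. Among all 35116 windows, 1.29% held one (1.60% of 27305 genes). The 250 bases before the annotated start in each of these 3 windows are shown because they share the element. The MYLK window belongs to an annotated start inside the gene, near its 3′ end and far from its 5′ end, whereas the MYLK counts given further on cover the whole gene. Capitals mark each CArG box. The windows are chr2:73892758-73893007 on the plus strand for ACTG2, chr19:1026358-1026607 on the plus strand for CNN2, and chr3:123620549-123620798 on the minus strand for MYLK.
ACTG2: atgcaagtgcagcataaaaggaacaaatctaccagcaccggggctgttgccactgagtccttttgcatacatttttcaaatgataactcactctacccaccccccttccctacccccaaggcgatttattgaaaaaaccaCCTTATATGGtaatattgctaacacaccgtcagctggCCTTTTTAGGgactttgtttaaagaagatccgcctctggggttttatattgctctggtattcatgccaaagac
CNN2: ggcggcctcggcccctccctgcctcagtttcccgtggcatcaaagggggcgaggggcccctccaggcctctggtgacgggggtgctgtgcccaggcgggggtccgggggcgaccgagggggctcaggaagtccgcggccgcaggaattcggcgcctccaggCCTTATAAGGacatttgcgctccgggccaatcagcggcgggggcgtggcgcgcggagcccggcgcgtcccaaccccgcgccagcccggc
MYLK: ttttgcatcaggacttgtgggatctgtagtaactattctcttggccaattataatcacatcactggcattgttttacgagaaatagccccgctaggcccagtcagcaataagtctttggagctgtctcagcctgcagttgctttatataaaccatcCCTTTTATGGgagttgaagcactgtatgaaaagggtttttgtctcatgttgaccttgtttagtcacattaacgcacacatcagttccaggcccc
ACTG2 holds 2 boxes, 100 and 63 bases before the start, CNN2 holds 1 at 79 bases and MYLK 1 at 84 bases. A match describes the letters and is not evidence of binding, and a window without a match says nothing about SRF. The windows of CNN2, TPM1 and TPM2 had a GC content of 72.3% to 78.3%, and those of ACTG2, CALD1 and MYLK 37.0% to 52.7%. Between these lay CNN1 at 61.3% and the ACTA2 windows at 54.7% and 55%.

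Libraries held 24008899 to 24727362 counts in CR and 23886257 to 24264458 in WT. Values are CPM (counts scaled to a common library total) with library sizes adjusted by TMM, edgeR's trimmed mean of M-values, and ± is the SD of 2 libraries throughout. The WT replicates differed more than the CR replicates. The spread of log2 ratios between replicates over all tested genes was 0.246 in CR and 0.645 in WT. Each value is a median absolute deviation scaled to be comparable to an SD, so the unscaled deviation is smaller. Among 10 epithelial ovarian carcinoma markers, those well above 0 in all libraries included PAX8, KRT8, EPCAM and CDH1. PAX8 had 399 and 395 CPM in CR and 546 and 286 CPM in WT. KRT8 had 628 ± 10.9 CPM in CR and 1622 ± 195 CPM in WT. EPCAM and CDH1 had higher means in CR and are described further on. PAX8 did not pass the test described next, but passed as higher in CR without WT replicate 1 (log2 fold change 0.47; edgeR adjusted p = 0.0113) and as lower without WT replicate 2 (-0.46; 0.00753). Some other markers were low in CR. KRT7 had 5.02 ± 0.332 CPM in CR and 395 ± 203 CPM in WT. MUC16 had 5.70 ± 2.80 CPM in CR and 36.0 ± 19.3 CPM in WT. The transcription factor gene WT1, whose symbol is unrelated to the WT group, had 4 and 0 counts in CR and 20 and 8 counts in WT. Among 17304 genes tested, 13.5% passed the edgeR quasi-likelihood test at a Benjamini-Hochberg adjusted p of at most 0.05, 5.44% higher and 8.1% lower in CR.

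The 10 contractile genes together made up 0.100% and 0.111% of all counts in the CR libraries and 0.268% and 0.335% in the WT libraries. Of the 10, 6 passed the threshold as lower in CR (MYL9, CALD1, CNN1, TAGLN, ACTG2 and TPM2), 0 passed as higher, and CNN2, TPM1, ACTA2 and MYLK did not pass. All 10 genes had been selected on this contrast, so these counts are set beside the background shares and nothing is read from them. The median log2 fold change, CR minus WT, was -2.12 over the 10 genes and -0.0065 over all genes tested. Both CR libraries lay below both WT libraries for 8 genes and above them for MYLK, while the groups overlapped for ACTA2; over all tested genes 55.3% did not overlap, and in 28.2% both CR libraries lay below both WT libraries. In bulk RNA, fewer cells that express a gene and less RNA per cell cannot be told apart.

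**Figure D1:**
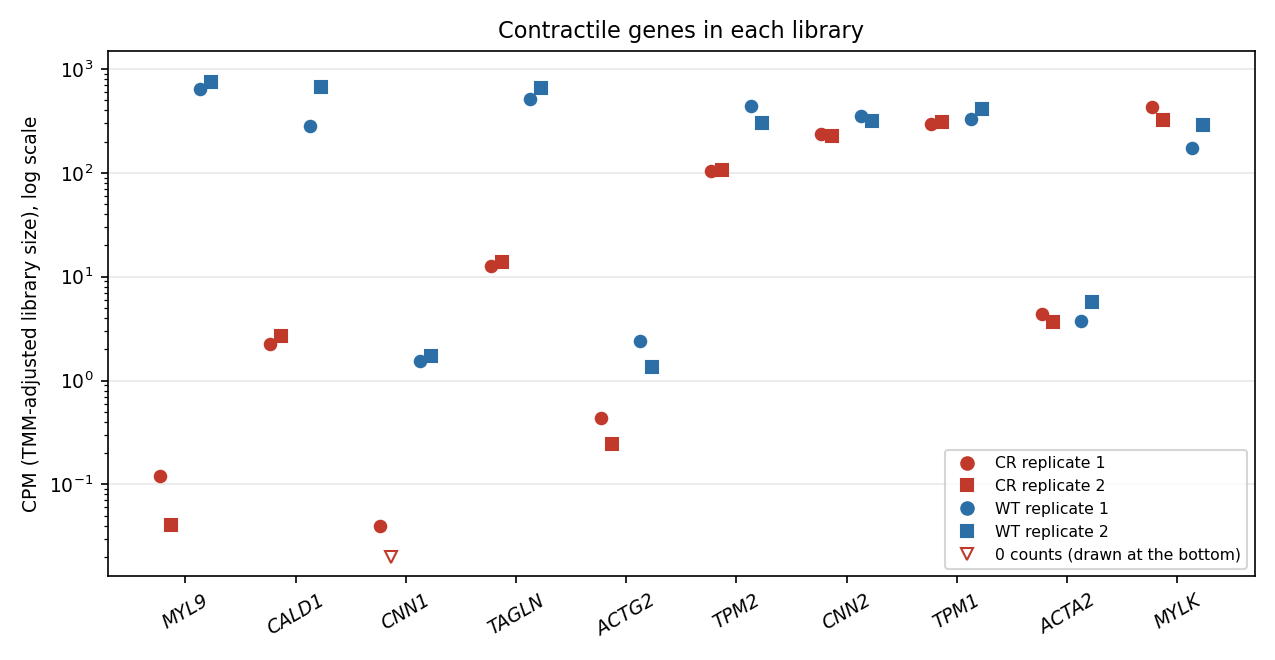
CPM of the 10 contractile genes (x axis, ordered by log2 fold change) in each library, on a logarithmic y axis, with the 2 CR libraries left of the 2 WT libraries for each gene. MYL9, CALD1, CNN1 and TAGLN lie far apart between the groups, while CNN2, TPM1, ACTA2 and MYLK lie close; the open triangle marks CNN1 at 0 counts in CR replicate 2.

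The myosin light chain gene stood furthest apart. MYL9 (ENSG00000101335, chromosome 20, 36541484 to 36551447, plus strand, GRCh38) had 3 and 1 counts in CR replicates 1 and 2, against 14963 and 17988 counts in WT replicates 1 and 2. In CPM this was 0.119 and 0.0409 in CR and 641 and 753 in WT. Both CR libraries were close to empty for this gene, which in WT was the highest of the 10. The ratio of WT to CR was 8647, with a 95% interval of 3377 to 31736 that covers counting error only.

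MYLK, the gene of the kinase (chromosome 3, 123610049 to 123884331, minus strand), had 432 and 322 CPM in CR, against 175 and 291 CPM in WT. The log2 fold change was 0.70, and the lower CR library lay just above the higher WT library. The call turns on the WT libraries and on settings: MYLK passed as higher without WT replicate 1 (log2 fold change 0.37), without WT replicate 2 (1.10) and with no low-count filter (0.69).

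Among genes of actin-filament regulators, CALD1 (chromosome 7, 134744252 to 134970728, plus strand), which encodes caldesmon, had 2.27 and 2.66 CPM in CR, against 284 and 672 CPM in WT. Both CR libraries lay below both WT libraries. The WT libraries themselves differed 2.37-fold, and 90.8% of 16180 genes with at least 20 WT counts had a smaller ratio between the WT replicates. CALD1 was 195-fold lower in CR, a log2 fold change of -7.60. TAGLN (chromosome 11, 117199321 to 117204782, plus strand), the transgelin also known as SM22-alpha, had 12.8 and 13.8 CPM in CR, against 513 and 649.9 CPM in WT. It was 43.8-fold lower in CR (log2 fold change -5.45). Unlike MYL9, TAGLN kept 321 and 338 counts in the CR libraries.

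The calponin genes differed from each other. CNN1 (chromosome 19, 11538717 to 11550323, plus strand), the calponin most restricted to smooth muscle, was a low transcript with 1 and 0 counts in CR, against 36 and 41 counts in WT. The groups did not overlap, but the CR side rests on a single count. The ratio of WT to CR was 80.8, with a 95% counting interval of 14.1 to 3233. CNN2 (chromosome 19, 1026581 to 1039068, plus strand), a calponin found in many non-muscle cells, had 239 and 227 CPM in CR, against 355 and 314 CPM in WT. Both CR libraries were lower, by 0.52 on the log2 scale, and the gene did not pass. Without WT replicate 1 or WT replicate 2 it passed as lower (log2 fold change -0.43 and -0.61).

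The tropomyosin genes split as well. TPM2 (chromosome 9, 35681992 to 35690121, minus strand), encoding beta-tropomyosin, had 104 and 107 CPM in CR, against 443 and 302 CPM in WT. It was 3.52-fold lower in CR (log2 fold change -1.82), and the CR libraries lay closer to each other than the WT libraries did. TPM1 (chromosome 15, 63042632 to 63071915, plus strand), encoding alpha-tropomyosin, had 296 and 306 CPM in CR, against 327 and 415 CPM in WT. The CR values lay just under the lower WT value. TPM1 did not pass, with a log2 fold change of -0.30, and among the alternatives run it passed as lower when WT replicate 1 was left out.

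The smooth muscle actins were scarce in all 4 libraries. ACTA2 (chromosome 10, 88935074 to 88991339, minus strand), alpha smooth muscle actin, had 4.38 and 3.64 CPM in CR, against 3.73 and 5.74 CPM in WT. The groups overlapped. ACTG2 (chromosome 2, 73892314 to 73919865, plus strand), the gamma actin of enteric smooth muscle, had 0.438 and 0.245 CPM in CR, against 2.40 and 1.34 CPM in WT. It was 5.43-fold lower in CR on 17 counts over the CR libraries and 88 over the WT libraries, and it did not pass without CR replicate 1 or without CR replicate 2 (log2 fold change -2.90 and -2.07).

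The order of levels was compared per kilobase of annotated exon length, which joins the exons of all annotated transcripts and so understates genes with many of them, such as MYLK and TPM1. In CR the order of CPM per kilobase was CNN2 (64.0 ± 2.34), TPM2 (32.5 ± 0.535), TPM1 (23.4 ± 0.578), MYLK (17.0 ± 3.53), TAGLN (3.40 ± 0.189), ACTA2 (1.35 ± 0.176), CALD1 (0.250 ± 0.0280), ACTG2, MYL9 and CNN1. The libraries of neighbouring genes in that order did not overlap. For MYL9 (3 and 1 counts) and CNN1 (1 and 0 counts) this rests on single counts, so the order of these genes is not resolved. In WT the order was MYL9 (247 ± 28.1), TAGLN (148 ± 24.8), TPM2 (115 ± 30.7), CNN2 (91.8 ± 8.07), CALD1 (48.6 ± 27.9), TPM1 (28.8 ± 4.84), MYLK (10.5 ± 3.68), ACTA2 (1.59 ± 0.478), CNN1 and ACTG2. Here TAGLN and TPM2, TPM2 and CNN2, CALD1 and TPM1, and CNN1 and ACTG2 overlapped. MYL9 and TAGLN led in WT, whereas CNN2 and the tropomyosins led in CR. In plain CPM, MYLK took 39.6% and 32.7% of the summed 10 genes in CR against 6.38% and 8.53% in WT, while MYL9 took 0.0109% and 0.00416% in CR against 23.3% and 22.1% in WT.

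Set within their protein families, per kilobase, the genes that were low in CR had paralogs at different levels. For the regulatory light chains, MYL9 was 0.0079% ± 0.0060 of the family sum in CR and 38.8% ± 2.66 in WT, with MYL12A and MYL12B, the widely expressed non-muscle light chains, making up the rest. MYL12B had 309 and 353 CPM per kilobase in CR, against 335 and 329 in WT, and its groups overlapped (log2 fold change -0.0016, SE 0.16; edgeR adjusted p = 0.997). The family sum was 374 ± 35.2 CPM per kilobase in CR and 635 ± 28.9 in WT.

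For the transgelins, TAGLN was 3.07% ± 0.0393 of the family in CR and 36.8% ± 6.17 in WT. TAGLN2, the broadly expressed member, fell to 266 ± 11.3 CPM in CR, against 630.1 ± 62.2 CPM in WT (log2 fold change -1.24, SE 0.17; edgeR adjusted p = 0.0041). The family sum was 110.5 ± 4.73 CPM per kilobase in CR and 403 ± 0.116 in WT. The neuronal TAGLN3 also fell, to 0.303 ± 0.0343 CPM in CR against 1.88 ± 0.179 CPM in WT, a call lost without CR replicate 1 (edgeR adjusted p = 0.111) or CR replicate 2 (0.0672).

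For the calponins, CNN2 was 72.9% ± 0.622 of the family in CR and 45.1% ± 8.01 in WT. CNN3, the acidic calponin, fell to 67.4 ± 0.308 CPM in CR, against 321 ± 75.6 CPM in WT (log2 fold change -2.25, SE 0.22; edgeR adjusted p = 0.00114). CNN1 was under 1 CPM per kilobase in every library.

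For the tropomyosins, TPM2 was 22.4% ± 0.0114 of the family in CR and 38.7% ± 9.96 in WT, while TPM1 was 16.1% ± 0.125 in CR and 9.75% ± 1.75 in WT. TPM4, a tropomyosin of stress fibres, fell to 418 ± 5.00 CPM in CR, against 892 ± 195 CPM in WT (log2 fold change -1.09, SE 0.20; edgeR adjusted p = 0.0122). TPM3 had 342 ± 6.42 CPM in CR and 408 ± 0.386 CPM in WT and did not pass. Among the actins, ACTB and ACTG1 made up nearly the whole family; ACTA2 was 0.0660% ± 0.0109 of it in CR and 0.0560% ± 0.0249 in WT, and ACTC1, a cardiac actin, had 3 counts in CR replicate 1 and 0 in the other 3 libraries.

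**Figure D2:**
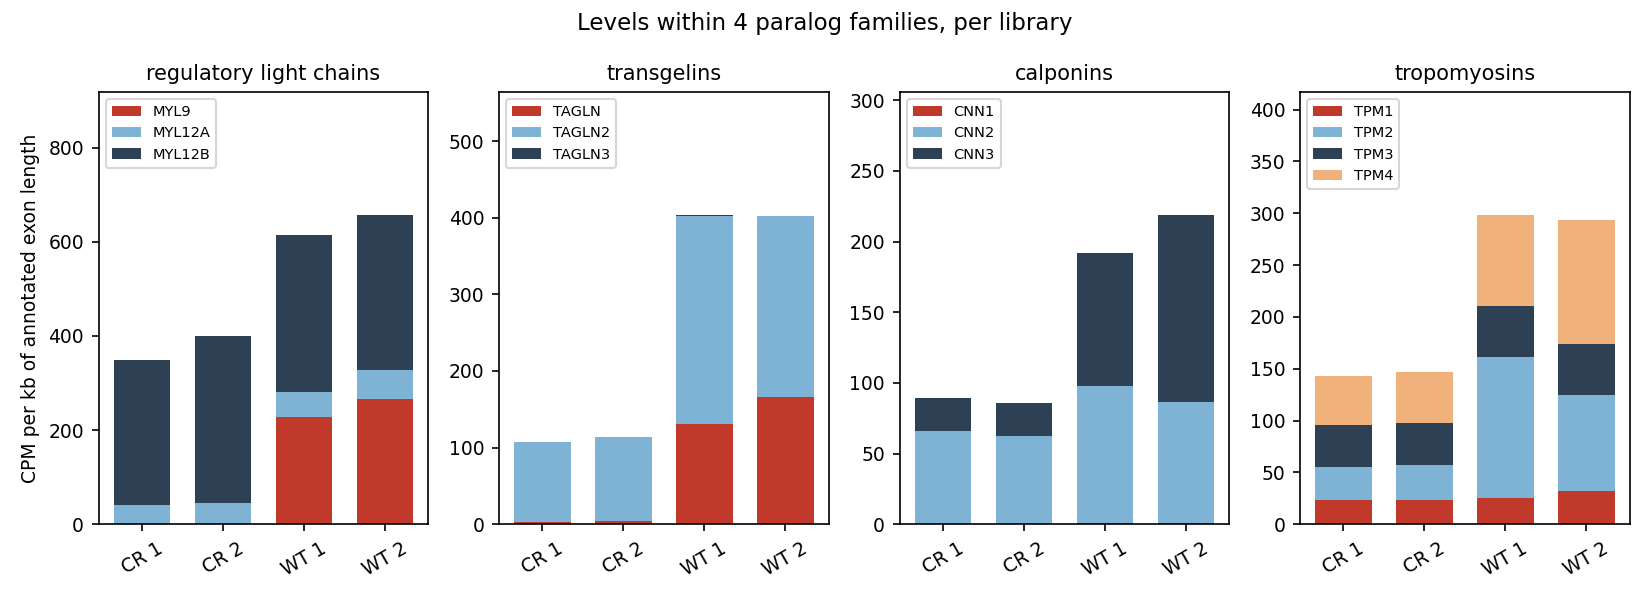
Stacked bars of CPM per kilobase of annotated exon length (y axis, from 0) for the regulatory light chains, transgelins, calponins and tropomyosins in CR replicates 1 and 2 and WT replicates 1 and 2. The MYL9 and TAGLN segments that are large in both WT bars are absent or nearly so in both CR bars, and the MYL12B segment is of similar height in all 4 bars.

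Sharing of sequence between paralogs could blur these counts, and was measured as the share of 50-base stretches of a gene's annotated transcripts that also occur in transcripts of another gene. It was 0% for MYL9, TAGLN, TPM2 and CALD1 and at most 1.13% for the other 6 contractile genes, the highest being CNN2. It was higher for some non-muscle paralogs, with 7.14% for TPM4, 5.86% for MYL12B and 5.84% for TAGLN2, where reads may have been split or dropped. The read length is not stated in the labels.

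For each of the 10 genes the nearest tested protein-coding gene on either side was taken, which gave 20 genes. Of these, 0 passed (edgeR quasi-likelihood; 1 at an unadjusted p under 0.05; DESeq2 called 0 and limma-voom 0), against 13.5% of all tested genes, and their log2 fold changes ran from -0.62 to 0.91. MYL9 is flanked by DLGAP4, 12847 bases away, with 29.2 ± 0.440 CPM in CR and 27.7 ± 7.51 CPM in WT, and by TGIF2, 22041 bases away, with 18.2 ± 1.12 CPM in CR and 28.0 ± 4.64 CPM in WT. CALD1 is flanked by BPGM (19.8 ± 0.0485 CPM in CR and 23.8 ± 2.88 CPM in WT) and AGBL3 (3.13 ± 0.0828 and 1.66 ± 0.805 CPM). TAGLN is flanked by SIDT2 (27.6 ± 5.18 CPM in CR and 35.6 ± 5.63 CPM in WT), only 1876 bases away, and by RNF214 (22.4 ± 2.57 and 26.6 ± 3.69 CPM). With WT replicate 1 left out 4 flanking genes passed as higher and 6 as lower, and with WT replicate 2 left out 2 and 7, within -0.85 to 1.51 on the log2 scale. Calls over all genes were also many in those fits, with 3589 higher and 3733 lower without WT replicate 1 and 3864 higher and 4015 lower without WT replicate 2.

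Some contractile genes overlap other annotated genes, and the strand setting of the counting is not given in the sources used here. TAGLN overlaps PCSK7 on the opposite strand, which had 42.0 ± 6.56 CPM in CR and 46.9 ± 7.12 CPM in WT. MYL9 overlaps the antisense gene DLGAP4-AS1, which had 6 and 4 counts in CR and 16 and 7 counts in WT. ACTA2 overlaps FAS and STAMBPL1 on the opposite strand, and STAMBPL1, a deubiquitinase gene, rose to 9.02 ± 0.429 CPM in CR, against 3.20 ± 0.620 CPM in WT (log2 fold change 1.49, SE 0.31; edgeR adjusted p = 0.0198), a call lost without CR replicate 1 (0.132) or CR replicate 2 (0.162). Reads of such pairs may not have been told apart.

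**Figure D3:**
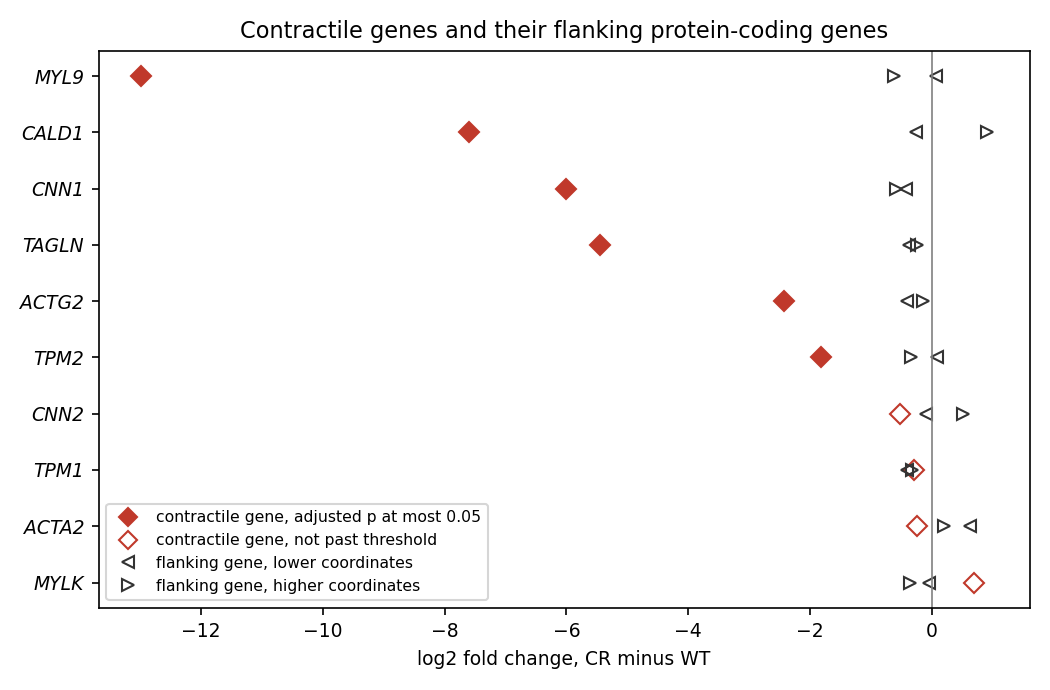
Log2 fold change, CR minus WT (x axis), of each contractile gene (diamonds, filled where the adjusted p was at most 0.05) and of its flanking tested protein-coding genes at lower and higher coordinates (triangles). The flanking genes lie between -0.62 and 0.91, while MYL9 lies at -12.99 and CALD1 at -7.60.

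By likeness of level, the 3 tested protein-coding genes nearest to MYL9 over the 4 libraries, in Euclidean distance of log2 CPM, were PHGDH, INA and PSMB8. PHGDH, an enzyme of serine synthesis, had 0.364 ± 0.121 CPM in CR and 209 ± 45.0 CPM in WT. Nearest to CALD1 were IL32 (3.17 ± 0.253 CPM in CR and 249 ± 36.8 CPM in WT), PEG10 (1.28 ± 0.660 and 564 ± 41.3 CPM) and C3 (5.12 ± 0.758 and 287 ± 9.35 CPM). Nearest to CNN1 were CRIP1, BDKRB2 and U2AF1L5. Distances were 3.39 to 3.63 for MYL9, 1.69 to 1.92 for CALD1 and 0.44 to 0.58 for CNN1. The points share their 4 libraries, and likeness over so few says nothing of shared control.

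Other genes known from smooth muscle were taken as a list. For this and each list below, the background in the full fit was 5.44% of all tested genes higher and 8.1% lower in CR. Fits without a WT library called far more genes over all, as given for the flanking genes. Nothing is read from the list counts of those fits. Of 15, 10 were tested, 1 rose, 2 fell and 7 did not pass, with a median log2 fold change of -0.10 (-0.0065 over all genes tested); without WT replicate 1, 2 rose and 3 fell, without WT replicate 2, 1 and 5, and without CR replicate 1, 1 and 1. CSRP1, a LIM protein of the actin cytoskeleton, fell to 97.0 ± 1.54 CPM in CR, against 294 ± 35.0 CPM in WT (log2 fold change -1.60, SE 0.19; edgeR adjusted p = 0.00208). PDLIM7, a LIM protein of the actin cytoskeleton, had 75.1 ± 0.182 CPM in CR and 155 ± 64.8 CPM in WT and did not pass, but was called lower with DESeq2 (adjusted p = 0.0114) and by edgeR with no low-count filter (0.000954), with the replicate block (0.00793) or the crossed block (0.0012), without WT replicate 1 (0.00121) and without WT replicate 2 (1.9e-21). KCNMB1, a potassium channel subunit, fell to 0.182 ± 0.0320 CPM in CR against 1.51 ± 0.294 CPM in WT, a call lost without CR replicate 1 (edgeR adjusted p = 0.0922). SYNM, the intermediate filament protein synemin, rose to 149 ± 0.977 CPM in CR, against 9.52 ± 0.865 CPM in WT (log2 fold change 3.97; edgeR adjusted p = 0.000168). MYH11, the smooth muscle myosin heavy chain, had 66 and 51 counts in CR and 30 and 33 in WT. LMOD1 had 62 and 80 counts in CR and 80 and 55 in WT, and the coactivator gene MYOCD had 0 counts throughout. SMTN had 37.4 and 31.1 CPM in CR and 44.2 and 19.9 CPM in WT, and its groups overlapped (log2 fold change 0.096). DES had 3.22 and 3.93 CPM in CR and 12.6 and 4.48 CPM in WT. Neither SMTN nor DES passed in the full fit.

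Of 13 non-muscle actomyosin genes, all tested, 0 rose, 7 fell and 6 did not pass, with a median log2 fold change of -0.68. With single libraries left out the counts of genes that rose and fell were 1 and 8 without WT replicate 1, 2 and 8 without WT replicate 2, and 0 and 3 with either CR library left out; upper quartile factors and library size alone each left 4 that fell, a minimum count of 50 left 3, DESeq2 5 and the replicate block 6. Beside TAGLN2, TAGLN3, CNN3 and TPM4, these were ACTB, MYL6 and MYH9. ACTB, cytoplasmic beta-actin, had 3483 ± 175 CPM in CR and 5799.9 ± 1175 CPM in WT. MYL6, the essential light chain, had 631 ± 60.7 CPM in CR and 1010.0 ± 91.3 CPM in WT. MYH9, the heavy chain of non-muscle myosin IIA, had 969.8 ± 176 CPM in CR and 1573 ± 63.5 CPM in WT. The calls of ACTB, MYL6 and MYH9 (edgeR adjusted p = 0.0432, 0.0402 and 0.0478) were each lost without CR replicate 1 (0.151, 0.414 and 0.0558), without CR replicate 2 (0.0716, 0.166 and 0.505), with library size alone (0.0518, 0.0514 and 0.0597) and with upper quartile factors (0.0796, 0.068 and 0.0646) and with a minimum count of 50 (0.0711, 0.054 and 0.0614). MYL6 and MYH9 also missed the threshold with DESeq2 (adjusted p = 0.0535 and 0.0577), and MYL6 with the replicate block in edgeR (0.0654). The heavy chain genes MYH10 (309 ± 47.8 CPM in CR and 249 ± 46.2 CPM in WT) and MYH14 (78.8 ± 9.79 and 52.0 ± 10.1 CPM) did not pass.

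A list of 20 genes was drawn up around light chain phosphorylation, and it also holds kinases of cofilin such as LIMK2. Of these, 19 were tested, 0 rose, 2 fell and 17 did not pass (median log2 fold change -0.23), while 13.5% of all tested genes passed. Without WT replicate 1, 1 rose and 10 fell, without WT replicate 2, 4 and 5, and with either CR library left out 0 and 0. PPP1R12A, the targeting subunit of myosin phosphatase, had 76.3 ± 2.65 CPM in CR and 77.5 ± 40.3 CPM in WT. PPP1R12A reversed to a log2 fold change of 0.64 without WT replicate 2 (edgeR adjusted p = 0.000169). LIMK2, a kinase that inactivates cofilin, fell to 31.2 ± 1.11 CPM in CR against 78.9 ± 2.44 CPM in WT (log2 fold change -1.34, SE 0.20; edgeR adjusted p = 0.00653). PPP1R14B, a phosphatase inhibitor, fell to 62.9 ± 2.63 CPM in CR against 120.6 ± 29.6 CPM in WT (edgeR adjusted p = 0.0416). Both calls were lost without CR replicate 1 (edgeR adjusted p = 0.0769 for LIMK2 and 0.338 for PPP1R14B) and without CR replicate 2 (0.103 and 0.259), and PPP1R14B did not pass with upper quartile factors (0.0524) or a minimum count of 50 (0.0523).

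Of 14 transcriptional regulators of contractile genes, 11 were tested, and SRF was the one that passed. SRF fell to 48.6 ± 2.04 CPM in CR, against 105.8 ± 9.65 CPM in WT (log2 fold change -1.12, SE 0.20; edgeR adjusted p = 0.0117). The call was lost without CR replicate 1 (edgeR adjusted p = 0.139) and without CR replicate 2 (0.197). Its coactivator MRTFA, listed in the table as MKL1, had 29.8 and 27.7 CPM in CR, against 49.1 and 41.5 CPM in WT. MRTFA did not pass in the full fit (log2 fold change -0.65). The log2 fold change was -0.53 without WT replicate 1 and -0.77 without WT replicate 2. MRTFB (MKL2) had 55.6 ± 10.4 CPM in CR and 57.3 ± 30.9 CPM in WT, and its log2 fold change reversed to 0.65 without WT replicate 2 (edgeR adjusted p = 0.000157). The SRF partners ELK3 (24.7 ± 0.584 CPM in CR and 17.5 ± 0.767 CPM in WT) and ELK4 (52.1 ± 2.60 and 41.5 ± 15.3 CPM) did not pass in the full fit. ELK3 had a log2 fold change of 0.49 there, 0.44 without WT replicate 1 and 0.54 without WT replicate 2. ELK4 had 0.33 in the full fit and 0.76 without WT replicate 2. MYOCD, PRRX1 and TCF21 had 0 counts in all libraries. The median of the list was 0.00084 on the log2 scale, and the counts that rose and fell were 1 and 4 without WT replicate 1, 5 and 2 without WT replicate 2, and 0 and 0 with either CR library left out.

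Of 17 genes of actin adhesions and known SRF targets, 0 rose, 5 fell and 12 did not pass (median log2 fold change -0.34). With WT replicate 1 left out 2 rose and 10 fell, without WT replicate 2, 4 and 7, and with CR replicate 1 or CR replicate 2 left out 4 or 3 fell and 0 rose. ANKRD1 fell to 7.25 ± 0.395 CPM in CR, against 218 ± 73.7 CPM in WT (log2 fold change -4.91; edgeR adjusted p = 0.000249). CCN2, the secreted connective tissue growth factor listed as CTGF, fell to 0.445 ± 0.123 CPM in CR against 5.93 ± 2.87 CPM in WT. PALLD, the actin crosslinker palladin, fell to 31.8 ± 0.152 CPM in CR against 144 ± 51.7 CPM in WT. ACTN1 (241 ± 24.6 CPM in CR and 490.0 ± 48.3 CPM in WT) and the adhesion protein gene ZYX (126 ± 6.86 and 241 ± 43.5 CPM) fell as well. Without CR replicate 2 both calls were lost (edgeR adjusted p = 0.117 for ACTN1 and 0.239 for ZYX), and without CR replicate 1 that of ZYX was lost (0.138). VCL, vinculin, had 933 ± 128 CPM in CR and 650.2 ± 214 CPM in WT, and FLNA, filamin A, had 3227 ± 654 and 4421 ± 112 CPM. Neither VCL nor FLNA passed in the full fit. With the crossed block VCL was called higher (edgeR adjusted p = 0.013) and FLNA lower (0.0106). The log2 fold change of VCL was 0.52 in the full fit and 0.90 without WT replicate 2. That of FLNA was -0.45, with -0.48 without WT replicate 1 and -0.43 without WT replicate 2.

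Of 27 striated muscle paralogs, genes of the sarcomere and their relatives, 15 were tested, 1 rose, 4 fell and 10 did not pass (median log2 fold change -0.29). Leaving out WT replicate 1 gave 5 that rose and 5 that fell, and without WT replicate 2, 1 and 6. TNNC1, the slow and cardiac troponin C, fell to 49.3 ± 4.02 CPM in CR, against 315 ± 33.7 CPM in WT (log2 fold change -2.68, SE 0.20; edgeR adjusted p = 0.000383), and the cardiac troponin T gene TNNT2 fell to 34.8 ± 4.29 CPM against 122 ± 2.77 CPM. MYL7, the atrial regulatory light chain, had 0 and 1 counts in CR and 16 and 56 counts in WT, and MYH2 had 0 counts in CR and 11 and 21 counts in WT, at least 11.2-fold lower when the CR group is set to a floor of 3 counts in all. MYLK4, a relative of MYLK, rose to 5.44 ± 0.980 CPM in CR, against 0.678 ± 0.0708 CPM in WT (log2 fold change 2.99, SE 0.39; edgeR adjusted p = 0.00348).

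**Figure D4:**
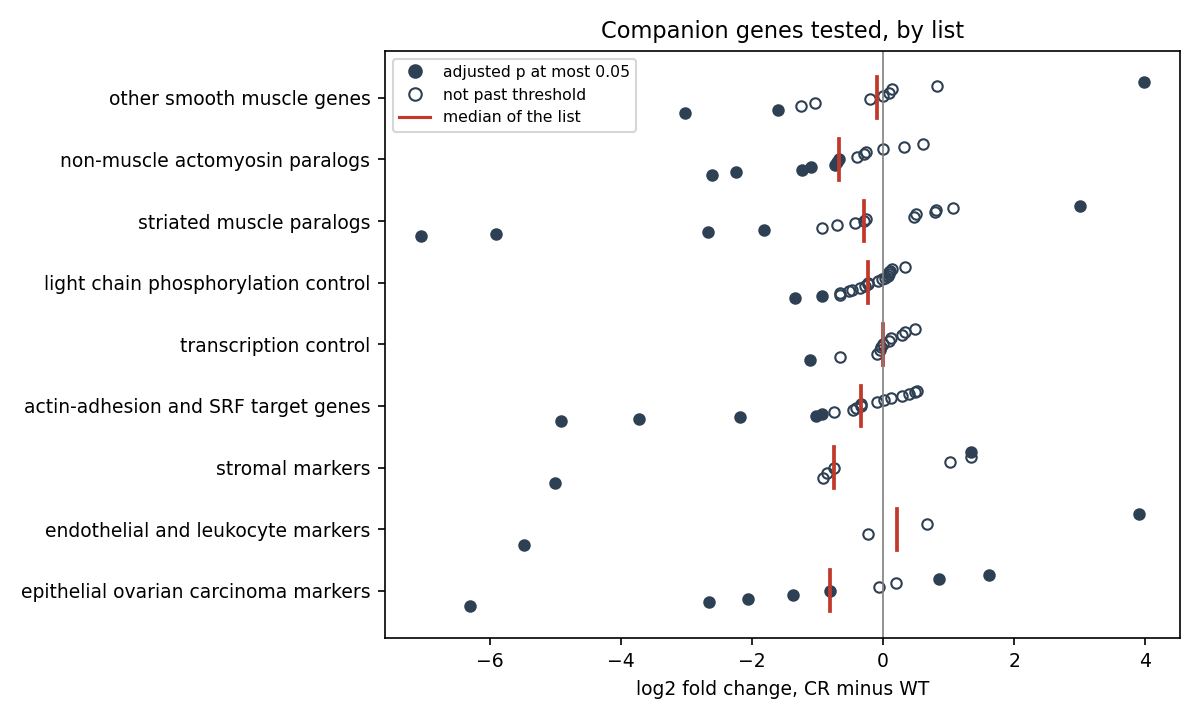
Log2 fold change, CR minus WT (x axis), of each tested companion gene by list (rows), filled where the adjusted p was at most 0.05, with the list median as a red bar. SYNM, PECAM1 and MYLK4 lie furthest to the right, and the median of transcription control lies at 0.00084.

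Stromal, endothelial and leukocyte markers were taken as lists too. The 13 stromal markers summed to 31.2 and 32.6 CPM in the CR libraries and 74.8 and 94.2 CPM in the WT libraries, with COL1A2, DCN and LUM at 0 counts in all libraries. Of the 7 tested, COL1A1 fell to 1.38 ± 0.369 CPM in CR against 44.3 ± 18.2 CPM in WT (edgeR adjusted p = 0.000575), NOTCH3 rose to 8.31 ± 0.183 CPM against 3.27 ± 0.831 CPM (0.0349; 0.272 without CR replicate 1 and 0.208 without CR replicate 2), and 5 did not pass, among them THY1 (6.60 ± 0.188 CPM in CR and 11.9 ± 2.74 CPM in WT) and RGS5 (12.7 ± 0.955 and 21.4 ± 7.47 CPM). The list had a median of -0.75 on the log2 scale, and without WT replicate 1, 1 rose and 4 fell, without WT replicate 2, 1 and 2, and with either CR library left out 0 and 1. The 7 endothelial and leukocyte markers summed to 30.8 and 34.4 CPM in CR and 67.6 and 86.0 CPM in WT. Of 4 tested, CDH5 fell to 0.989 ± 0.0475 CPM in CR against 44.0 ± 3.31 CPM in WT and PECAM1 rose to 3.53 ± 0.360 CPM against 0.232 ± 0.146 CPM, while VWF (27.1 ± 2.25 CPM in CR and 31.9 ± 9.49 CPM in WT) and LYZ (0.442 ± 0.163 and 0.277 ± 0.274 CPM) did not pass (median 0.22). Without WT replicate 1, 1 rose and 2 fell. Both sums were lower in CR, with the largest differences in COL1A1 and CDH5, while other markers such as NOTCH3 and PECAM1 were higher. MYL9, TAGLN and CALD1 were lower in CR too, and any part of such cells in the values of those genes was not tested.

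Of the 10 epithelial ovarian carcinoma markers, 9 were tested, 2 rose, 5 fell and 2 did not pass (median log2 fold change -0.81). With WT replicate 1 dropped 4 rose and 5 fell, without WT replicate 2, 2 and 7, and with either CR library left out 1 and 4. The keratin genes KRT7 and KRT8 fell to 5.02 ± 0.332 and 628 ± 10.9 CPM in CR, against 395 ± 203 and 1622 ± 195 CPM in WT, while the epithelial cadherin CDH1 rose to 244 ± 19.6 CPM against 79.7 ± 39.7 CPM. MSLN, MUC16 and KRT18 fell as well, KRT18 at an edgeR adjusted p of 0.0492 that was lost without CR replicate 1 (0.233) or CR replicate 2 (0.0588) and under 5 other settings. EPCAM, an epithelial adhesion molecule, rose, with 209 ± 20.8 CPM in CR and 116 ± 3.95 CPM in WT, a call lost without CR replicate 1 (edgeR adjusted p = 0.153) or CR replicate 2 (0.376).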

How the data were processed

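Stranded poly(A) libraries of 4 samples were compared, per the labels' protocols. The authors deposited whole-number counts per Ensembl gene with no normalization; their scaled table was not used. The submitters' processing notes name STAR 2.5.1a, HTSeq, DESeq and GRCh38.p7 without their roles. Neither the annotation release nor the strand setting is given in the sources used here. Genes without a symbol (20988, holding 0.436% to 0.535% of counts) stayed in under their identifiers.

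Counts were fitted with edgeR 4.0.16 in R 4.3.3 (filterByExpr with a minimum count of 10, TMM, robust two-sided quasi-likelihood test of CR against WT with no covariate). P-values were Benjamini-Hochberg adjusted over 17304 genes, and the threshold was 0.05. SE was taken from the fold change and its F statistic. DESeq2 1.42.0 and limma 3.58.1 (voom) were alternatives, and the code was tested on simulated counts. Folds are ratios of summed counts per adjusted library size, and their exact 95% intervals cover counting error only, without molecular identifiers. Positions and exon lengths came from GENCODE 29 (GRCh38), which held 57447 of the identifiers.

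The members and lists were chosen with earlier results of these data known. The 9 companion lists hold 136 genes, 4 matched by identifier under an older symbol. Genes were named by rule: the members, the 4 smallest adjusted p per list, called genes where 5 or fewer were counted, family members, neighbours, and for each of the 3 members with the largest change the 3 genes nearest in level. PAX8, MYH11, LMOD1, MYOCD, SMTN, DES, MYH10, MYH14, PPP1R12A and MRTFB were named after their values were seen. So were VCL, FLNA, PRRX1, TCF21, MYL6, MYH9, EPCAM, CDH1 and the stromal genes at 0 counts. A few rule-named genes are not reported here. With 2 libraries a group, the smallest two-sided exact permutation p is 0.333, so no such test was run.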

Additional observations from a re-analysis of the deposited data

How the results depend on the processing

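Of the 138 refitted values of the 10 contractile genes, 129 kept their direction and their side of the threshold, 7 (CNN2, TPM1 and MYLK) newly passed in the same direction and 2 (ACTG2) no longer passed. The 6 lower calls stayed 6 with RLE, upper quartile or no scaling factors, with DESeq2, limma-voom, no robust estimation, no low-count filter and either block; a minimum count of 50 removed CNN1 and ACTG2 from the test and left 4. With single replicates left out, 5 to 8 contractile genes were called lower and 0 to 1 higher, and over all genes 537 to 3864 were higher and 883 to 4015 lower (942 and 1402 in the full fit). MYLK alone was called higher with no low-count filter (1 gene, against 1454 higher over all genes) and with the crossed block (1 gene, against 1671 higher). With 1 library left in a group its spread is taken from the other pair, so calls grow without a WT library. The labels do not say whether replicate numbers pair the samples. Differences between replicates 1 and 2 correlated at -0.174 between groups across genes, which cannot settle it. With the replicate block 1258 genes were higher and 1517 lower, and with crossed numbers, chosen after seeing the data, 1671 and 1803. Signs reversed in 4 genes, none a contractile gene. HACD2, a neighbour of MYLK, had a log2 fold change of -0.044 in the full fit, -0.46 without WT replicate 1 and 0.54 without WT replicate 2 (edgeR adjusted p = 0.00165). Without WT replicate 1 and WT replicate 2, PPP1R12A had -0.48 and 0.64, MRTFB (MKL2) -0.51 and 0.65, and PAX8 0.47 and -0.46. Of 1290 refitted values of 93 other genes, 1188 kept their direction and side, 53 newly passed and 45 no longer passed. The cause was not tested. Depth limits CNN1, ACTG2 and ACTA2, and MYL9 in CR.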
